A study of Homo sapiens with 9 samples.

Results

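The genes described here are 8 transcription factors that set and maintain intestinal epithelial identity: HNF4A, HNF4G, CDX1, CDX2, GATA6, ELF3, KLF5 and SOX9. They were taken by name from a fixed list, and all 8 were among the 27662 genes of the count table, each read from the transcript entry with the highest total. RNA of Caco-2 cells, a line from a colon adenocarcinoma that can form an enterocyte-like layer, was enriched for poly(A) and sequenced. The 3 groups of 3 libraries were lovastatin alone (10 µM, 48 h), lovastatin with 10 µM SGA360 and lovastatin with 10 µM SGA315, all in medium with lipid-depleted serum. Lovastatin, an inhibitor of cholesterol synthesis, was thus present in every group, the controls included, and both code-named compounds are given in the labels as ligands of the aryl hydrocarbon receptor (AHR). All libraries come from a single cell line, and nothing in the labels says that the libraries of a group were separate cultures, so p-values measure a spread that may be technical.

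HNF4A and its close relative HNF4G are nuclear receptors that switch on lipid transport and absorptive genes in enterocytes. CDX1 and CDX2 are caudal homeobox factors that separate intestinal from gastric fate, and GATA6 is a zinc finger factor of the developing and adult gut. ELF3 is an epithelial ETS factor, KLF5 a Krüppel-like factor of dividing crypt cells, and SOX9 an SRY-box factor of stem and progenitor cells in the crypt that is maintained by Wnt signals.

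HNF4A is read from 2 promoters, an upstream one known as P2 and a downstream one known as P1, and the count table holds entries that begin at each. Their sequences are shown because the entries are compared later, together with the promoter of CDX2, the factor with the largest rise. They are the 250 bases before the transcription start in RefSeq's GRCh38.p14 annotation, written 5′ to 3′ on the strand of the gene, at chr20:44355449-44355698 (plus strand, P2), chr20:44400989-44401238 (plus strand, P1) and chr13:27969316-27969565 (minus strand, CDX2). Capitals mark AGATAA, a sequence that GATA factors recognise, and ATTAAC, a half-site of some homeodomain factors, each searched on both strands; the marked matches do not overlap.
HNF4A P2: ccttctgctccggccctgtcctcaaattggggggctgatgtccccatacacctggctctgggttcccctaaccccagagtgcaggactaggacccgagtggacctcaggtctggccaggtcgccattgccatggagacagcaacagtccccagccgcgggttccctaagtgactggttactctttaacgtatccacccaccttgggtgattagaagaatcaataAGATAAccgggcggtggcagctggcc
HNF4A P1: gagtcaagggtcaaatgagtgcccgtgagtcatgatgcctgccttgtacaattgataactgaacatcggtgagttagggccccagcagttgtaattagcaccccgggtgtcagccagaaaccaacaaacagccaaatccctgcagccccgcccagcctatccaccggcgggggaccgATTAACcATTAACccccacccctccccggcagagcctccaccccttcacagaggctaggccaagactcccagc
CDX2: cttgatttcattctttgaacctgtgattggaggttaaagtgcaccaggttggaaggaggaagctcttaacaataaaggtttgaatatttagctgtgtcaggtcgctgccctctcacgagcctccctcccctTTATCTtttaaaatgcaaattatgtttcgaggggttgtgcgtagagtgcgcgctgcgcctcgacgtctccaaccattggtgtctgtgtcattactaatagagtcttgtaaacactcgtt
AGATAA began 26 bases before the P2 start and, on the opposite strand, 119 bases before the CDX2 start, and 9.17% of 35116 promoter windows of this length held it. ATTAAC occurred in P1 at 73 and 66 bases before the start, and 6.23% of the windows held it. GCGTG, the core of the AHR binding sequence, occurred in 0 of the 7 windows searched, which belong to 5 of the factors (HNF4A, CDX2, GATA6, ELF3 and KLF5). Of all windows, 32.2% held it on either strand. HNF4G was left out of this search, and no window was available for SOX9 or CDX1. These are matches of letters within a short window and not measurements of binding.

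Between 12341740 and 16880691 counts per library entered the analysis. Levels are given as CPM, read counts set on a common library size with the trimmed mean of M values (TMM). Changes are log2 fold changes ± SE from edgeR's quasi-likelihood test, and a gene is called at a Benjamini-Hochberg adjusted p under 0.05 over all 14668 genes tested. The median log2 change over all genes was 0.02 for SGA360, and 0.14 when libraries were scaled by their totals alone, while the share of called genes that were higher went from 50% to 67.4%. For SGA315 the median was 0.04 and 0.16, and the share 52.0% and 65.7%. Both comparisons with lovastatin alone use the same 3 control libraries, and the ligands form 1 pair of compounds, compared at the same dose and time. Epithelial and intestinal markers were read beside the factors. Their summed level was 7890 to 7995 CPM in the lovastatin libraries, 5760 to 6200 CPM with SGA360 and 4204 to 4310 CPM with SGA315. It was mostly the keratin genes KRT8 and KRT18, so the sum is no check of an intestinal label. KRT8 stood at 3478, 2630 and 1492 CPM in the 3 groups and KRT18 at 1631, 1192 and 716 CPM. The intestinal marker VIL1 stood at 253, 213 and 202 CPM and CDH17 at 289, 190 and 203 CPM. Of the 9 markers 8 were tested, and 7 were lower and 0 higher with each ligand. Of all genes, 31.4% were lower and 31.4% higher with SGA360, and 33.2% and 36.0% with SGA315. The keratin gene KRT18, EPCAM and CDH1 were each tested, while GPA33, a colon antigen, had 4 counts in all libraries together.

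6 of the 8 factors were expressed at a level that could be tested. CDX1 had 0 counts in each of the 9 libraries, which allows up to 3 counts, or 0.174 to 0.236 CPM depending on the library (counting error only). HNF4G had 6, 4 and 8 counts with lovastatin alone, 8, 9 and 8 with SGA360 and 4, 13 and 15 with SGA315, at most 1.13 CPM, and fell under the filter on low counts. SGA315 replicate 1 was as low as the lowest control and the other SGA315 libraries were above every library of the other groups. Without the filter the log2 change of HNF4G was 0.83 with SGA315 (edgeR, adjusted p = 0.107). Leaving out SGA315 replicate 1, its lowest SGA315 library, gave 1.27 (adjusted p = 0.00716), and there HNF4G passed the filter through the other SGA315 libraries. The other fits that held HNF4G gave an adjusted p from 0.0752 to 0.236, so that call is no support for a rise. Of each of the HNF4 and CDX pairs, 1 member, HNF4A and CDX2, passed the filter.

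Of the 6 tested factors, SGA360 lowered 4 (SOX9, HNF4A, GATA6 and KLF5) and raised 1 (ELF3); of all genes tested, 31.4% were lower and 31.4% higher. SGA315 lowered 4 (GATA6, KLF5, SOX9 and HNF4A) and raised 1 (CDX2), against 33.2% and 36.0% of all genes. Between the ligands at the matched dose and time, 4 were lower with SGA360 than with SGA315 (SOX9, HNF4A, CDX2 and KLF5) and 1 higher (ELF3), against 20.9% and 21.8% of all genes. CPM did not overlap between the groups for 6 of the 6 factors with SGA360, 5 of 6 with SGA315 and 5 of 6 between the ligands; for all genes these shares were 66.3%, 70.4% and 49.2%. With most tested genes called in both comparisons with lovastatin alone, a call there sets no factor apart.

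**Figure D1:**
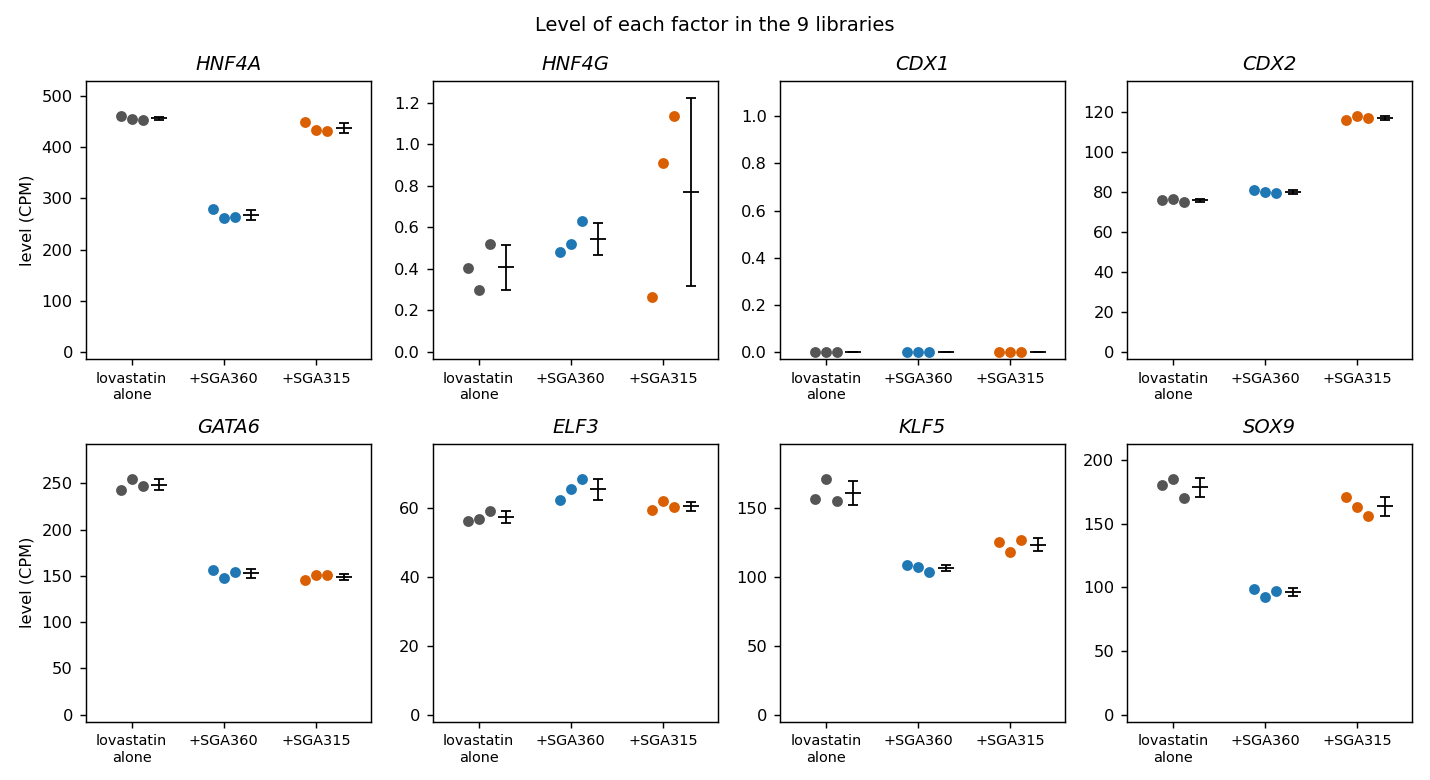
Level of each of the 8 factors in CPM (vertical axes, from 0) in each library of the 3 groups; dots are libraries, the bar beside them the mean with SD (n = 3). HNF4A and SOX9 are lowest with SGA360, GATA6 is low with both ligands, CDX2 is high with SGA315, HNF4G stays at or under 1.13 CPM and CDX1 is at 0.

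HNF4A stood at 460.5, 455 and 454 CPM with lovastatin alone, at 279.7, 262 and 263 CPM with SGA360, and at 449.8, 434 and 431 CPM with SGA315. The SGA360 libraries lay far below both other groups, and the SGA315 libraries lay just under those of lovastatin alone. With SGA360 the level of HNF4A fell by 0.77 ± 0.028 (adjusted p = 7.16e-35), from 457 ± 3.44 to 268 ± 9.84 CPM (mean ± SD, n = 3 each), and 8.58% of all genes had a larger change. With SGA315 the log2 change of HNF4A was −0.06 ± 0.027 (adjusted p = 0.0485). That call ended without SGA315 replicate 2 (adjusted p = 0.103) or replicate 3 (adjusted p = 0.113). Scaling by totals alone turned its sign (0.06, adjusted p = 0.0326). The adjusted p ranged from 0.00795 to 0.113 over 16 alternatives. The direct comparison of the ligands gave −0.71 ± 0.028 for SGA360 against SGA315 (adjusted p = 4.51e-32, 95% interval −0.76 to −0.65), so the difference between the ligands was nearly as large as the fall itself.

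The 10 transcript entries of HNF4A repeat the reads of shared exons and are not independent. All 10 gave the same picture with SGA360, from −0.77 to −0.73, while the change with SGA315 ranged from −0.06 to −0.03 and was called for 2 of the 10. The P2 entry NM_175914 and the P1 entry NM_000457, whose starts lie 45584 bases apart in GENCODE 29, differ at the 5′ end. NM_175914 held 15, 25 and 37 reads more than NM_000457 with lovastatin alone and 6, 17 and 13 more with SGA360. With SGA315 the differences were 5, −3 and −18 reads, so the P1 entry held more in 2 of the 3 libraries. The groups with lovastatin alone and SGA315 did not overlap in this difference, which is small beside 3335 to 7004 reads per library in either entry and was not tested.

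SOX9, like HNF4A, was lowest with SGA360. Its level was 180.5, 185 and 170.0 CPM with lovastatin alone, 99.0, 92.8 and 97.5 CPM with SGA360, and 171, 163 and 156 CPM with SGA315. Every SGA360 library was lower than every other library, whereas the SGA315 and lovastatin libraries overlapped. SOX9 fell by 0.89 ± 0.036 with SGA360 (adjusted p = 2.19e-32), the largest change among the 6 tested factors, and 6.16% of all genes changed more. With SGA315 it fell by 0.12 ± 0.034 (adjusted p = 0.00107), but its change was −0.0016 (adjusted p = 0.97) when libraries were scaled by totals alone (5.8e-05 to 0.97 over the alternatives). SGA360 against SGA315 gave −0.77 ± 0.037 for SOX9 (adjusted p = 9.14e-28), and 3.20% of all genes differed more between the ligands. SOX9-AS1, an antisense RNA named for this gene, had 15 counts with lovastatin alone, 20 with SGA360 and 50 with SGA315 over the 3 libraries of each group. Its log2 change with SGA315 was 1.74 ± 0.39 (adjusted p = 7.52e-05). SOX9-AS1 passed the filter on low counts only through the SGA315 libraries (17, 13 and 20 counts), so that call is no support for a rise. Whether counting used strand is not given in the sources used here; SOX9-AS1 had 85 reads in all and SOX9 had 19252.

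GATA6 was lowered by both compounds, by changes of similar size. Its level was 243, 255 and 248 CPM with lovastatin alone, 157, 148 and 154 CPM with SGA360 and 145, 151 and 151 CPM with SGA315. The ligand groups overlapped each other and lay well below the controls. GATA6 fell by 0.70 ± 0.031 with SGA360 (adjusted p = 1.07e-30) and by 0.74 ± 0.031 with SGA315 (adjusted p = 8.31e-32). Larger changes were seen in 10.5% of all genes with SGA360 and in 14.0% with SGA315. The difference between the ligands was 0.04 ± 0.033 (adjusted p = 0.389), with a 95% interval of −0.03 to 0.10. GATA6-AS1, the long non-coding RNA named for the same locus, had a log2 change of −0.11 ± 0.097 with SGA360 (adjusted p = 0.313) and −0.09 ± 0.099 with SGA315 (adjusted p = 0.429), at 10.8 ± 0.774 CPM with lovastatin alone. The paralogue GATA4 stood at 1.73 ± 0.161, 2.65 ± 0.0884 and 2.32 ± 0.163 CPM in the 3 groups and rose by 0.62 ± 0.20 with SGA360 (adjusted p = 0.00698), a call that ended with DESeq2 (adjusted p = 0.0689). GATA5 stood at 1.31 ± 0.394, 0.972 ± 0.0891 and 1.51 ± 0.286 CPM and was not called with either ligand.

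KLF5 fell with both ligands, further with SGA360. The libraries held 156, 171 and 155 CPM with lovastatin alone, 108, 107 and 104 CPM with SGA360 and 125, 118 and 126 CPM with SGA315. The 3 groups did not overlap. The change was −0.59 ± 0.036 with SGA360 (adjusted p = 2.56e-23) and −0.38 ± 0.036 with SGA315 (adjusted p = 4.19e-15), and the ligands differed by −0.21 ± 0.037 (adjusted p = 3.33e-06). Larger changes were seen in 15.1% of all genes with SGA360 and in 40.9% with SGA315. KLF5 has a second entry with 92.1% of the reads of the first, which gave −0.59 and −0.36.

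CDX2 was the factor raised by SGA315. It stood at 75.9, 76.8 and 75.0 CPM with lovastatin alone, at 81.0, 79.9 and 79.5 CPM with SGA360 and at 116, 118 and 117 CPM with SGA315. The SGA315 libraries formed a tight group well above the rest. CDX2 rose by 0.63 ± 0.037 with SGA315 (adjusted p = 4.9e-24), 1.54-fold, and 20.0% of all genes changed more. With SGA360 its log2 change was 0.08 ± 0.039 (adjusted p = 0.0683), although all 3 SGA360 libraries lay above all 3 controls. That value was called under scaling by totals alone (0.19, adjusted p = 1.42e-05) and in a fit of the 2 groups alone (0.08, adjusted p = 0.0479), and the adjusted p over the alternatives was 1.42e-05 to 0.295. SGA360 against SGA315 gave −0.55 ± 0.036 (adjusted p = 1.19e-20).

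ELF3 differed little between the groups, at most by 0.18 on the log2 scale, a size that 61.3% of all genes exceeded with SGA360. Its libraries held 56.1, 56.8 and 59.2 CPM with lovastatin alone, 62.4, 65.4 and 68.3 CPM with SGA360 and 59.3, 61.9 and 60.2 CPM with SGA315. The groups did not overlap, but the highest control and the lowest SGA315 library were nearly equal. ELF3 rose by 0.18 ± 0.044 with SGA360 (adjusted p = 0.000238), while the change with SGA315 was 0.08 ± 0.045 (adjusted p = 0.134) and was called under scaling by totals alone (0.20, adjusted p = 0.000127; 0.000127 to 0.522 over the alternatives). The difference between the ligands, 0.11 ± 0.044 (adjusted p = 0.0393), was not called with DESeq2 (adjusted p = 0.0921), in a fit of the ligand groups alone (0.0503), under scaling by totals alone (0.057), or without SGA360 replicate 2 (0.0902), SGA360 replicate 3 (0.18), SGA315 replicate 1 (0.142) or SGA315 replicate 3 (0.0666). Over the alternatives the adjusted p was 0.0188 to 0.18. ELF3-AS1, named as its antisense RNA, had 547 counts in all, and its change was not called with either ligand (adjusted p = 0.115 and 0.534).

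**Figure D2:**
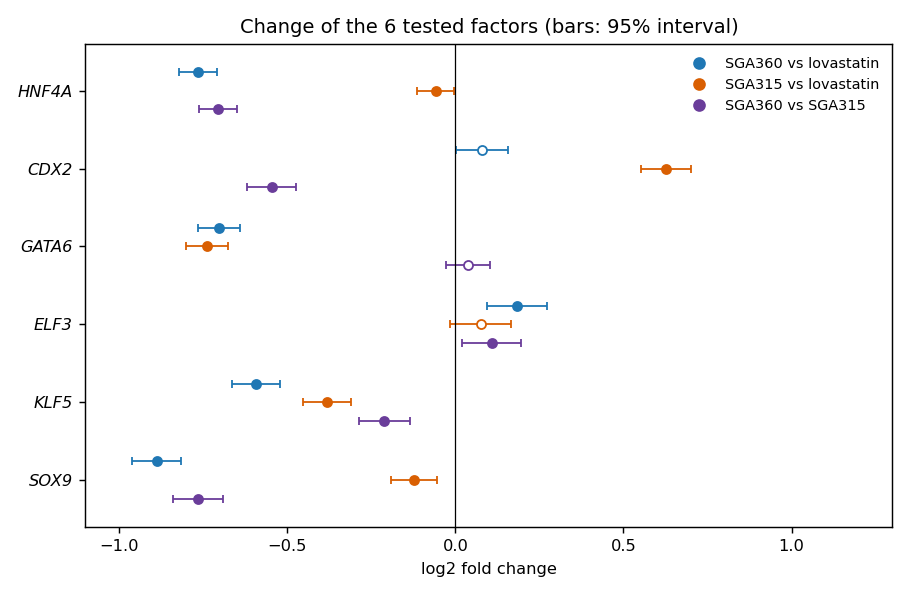
Log2 fold change of each of the 6 tested factors (horizontal axis) in the 3 comparisons, with 95% intervals from edgeR; filled symbols passed an adjusted p under 0.05 and open symbols did not. For HNF4A and SOX9 the SGA360 values (−0.77 and −0.89) lie far from those of SGA315 (−0.06 and −0.12), and for GATA6 they nearly coincide (−0.70 and −0.74).

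HNF4A and SOX9 had each other as nearest gene. Among 10178 candidates whose mean was 10 CPM or more, SOX9 was the nearest to HNF4A by Euclidean distance of centred log2 CPM over the 9 libraries (0.19), and HNF4A was the nearest to SOX9. COQ8A, a gene of coenzyme Q synthesis, came next to HNF4A (0.19), followed by IL17RB (0.25). For SOX9 the next were ETFB, a subunit of the electron transfer flavoprotein (0.21), and again COQ8A (0.25). The nearest to GATA6 were MYADM, AGPAT2 and DIAPH1 (0.085, 0.10 and 0.10), to KLF5 AKAP1, NCAPD2 and BCLAF1 (0.12, 0.15 and 0.15), and to CDX2 CBLB, SEMA6A and BTG1 (0.16, 0.16 and 0.17). These distances describe 9 libraries of 3 groups.

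Among 19 other regulators of endoderm and enterocytes, all tested, 6 were higher and 6 lower with SGA360, near the 31.4% of all genes called in each direction, at a median log2 change of −0.04 (0.02 for all genes). Under scaling by totals alone 2 were lower. With SGA315, 9 were higher and 3 lower (36.0% and 33.2% of all genes), at a median of 0.16 (0.04 for all genes). Between the ligands 1 was higher and 8 lower with SGA360 (21.8% and 20.9% of all genes), at a median of −0.21 (−0.01 for all genes), and DESeq2 called 5 lower. EHF, an epithelial ETS factor related to ELF3, stood at 0.787 ± 0.233, 2.90 ± 0.334 and 4.41 ± 0.638 CPM in the 3 groups. It rose by 1.89 ± 0.25 with SGA360 (adjusted p = 1.06e-09) and by 2.49 ± 0.23 with SGA315 (adjusted p = 2.93e-15). Both ligands also raised MAF, a bZIP factor (by 0.73 and 1.20), and NR5A2, a nuclear receptor (by 0.33 and 0.96; the former not called without lovastatin replicate 1, adjusted p = 0.0907, or SGA360 replicate 3, 0.0802). The pioneer factor FOXA2 fell by 0.55 ± 0.047 with SGA315 and by 0.16 ± 0.043 with SGA360, though not under scaling by totals alone (adjusted p = 0.392), and FOXA1 fell by 0.24 and 0.23.

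CREB3L3, a membrane-bound factor of lipid transport in liver and intestine, moved in opposite directions. It stood at 6.12, 5.78 and 7.13 CPM with lovastatin alone, at 2.77, 2.67 and 3.38 CPM with SGA360 and at 10.5, 8.90 and 8.32 CPM with SGA315. The 3 groups did not overlap. CREB3L3 fell by 1.13 ± 0.15 with SGA360 (adjusted p = 1.18e-09) and rose by 0.54 ± 0.12 with SGA315 (adjusted p = 4.13e-05). ESRRA, a nuclear receptor of mitochondrial genes, likewise fell by 0.16 with SGA360 (adjusted p = 0.354 under scaling by totals alone) and rose by 0.15 with SGA315 (not called with DESeq2, adjusted p = 0.055).

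**Figure D3:**
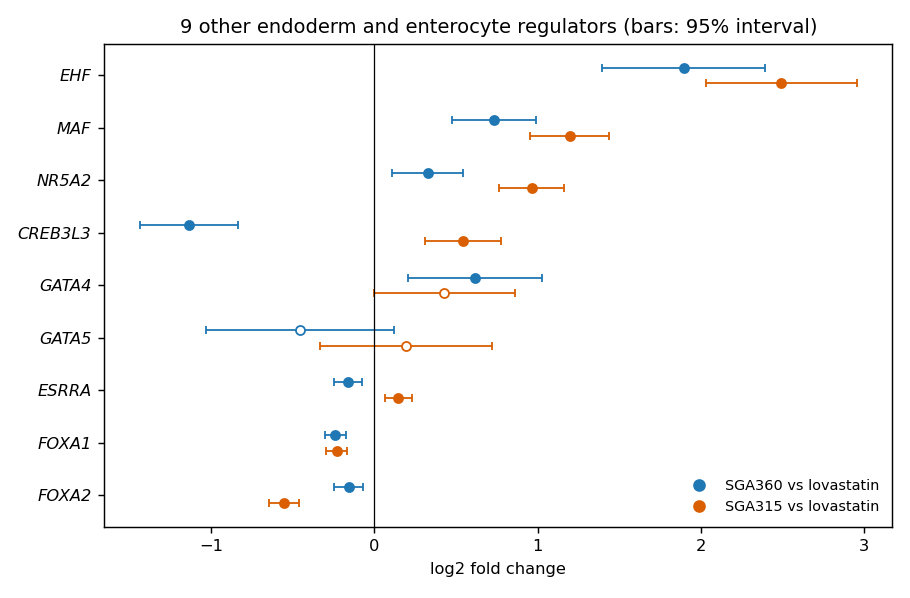
Log2 fold change (horizontal axis) of 9 of the other endoderm and enterocyte regulators, those named in the text, with SGA360 and with SGA315 against lovastatin alone, ordered by the SGA315 value, with 95% intervals; filled symbols passed an adjusted p under 0.05. EHF has the largest rise of the 9 with both ligands (1.89 and 2.49), and CREB3L3 lies on opposite sides of 0.

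Of 14 factors of secretory and progenitor fate only 5 could be tested, and NEUROD1 and PAX4 had 0 counts in all libraries. With SGA360 1 was higher and 2 lower (median −0.03), with SGA315 2 and 2 (median 0.08), and between the ligands 2 were higher and 1 lower with SGA360. Of all genes, 31.4% were higher and 31.4% lower with SGA360, 36.0% and 33.2% with SGA315, and 21.8% and 20.9% between the ligands. Most of these small counts lie near that background. The same shares apply to the cofactors below, of which only 6 were tested. GFI1, a repressor in secretory precursors, rose by 1.36 and 1.41 with SGA360 and SGA315, from 1.32 ± 0.295 CPM. SPDEF, a goblet cell factor, fell by 0.83 and 1.65, from 3.59 ± 0.731 CPM. SOX4, a progenitor factor, fell by 0.21 ± 0.041 with SGA360 and rose by 0.30 ± 0.039 with SGA315, and the Notch effector HES1 had a change of −0.03 (adjusted p = 0.517) with SGA360 and fell by 0.55 with SGA315. Of 9 cofactors of the 8 factors, 6 were tested; 4 were higher and 0 lower with SGA360 (median 0.11), where the lower members at an unadjusted p under 0.05 were also 0, 4 and 1 with SGA315 (median 0.23), and 1 and 3 between the ligands. DESeq2 called 0 lower with SGA360 and 1 lower between the ligands. EP300, a histone acetyltransferase gene, was called lower with SGA360 without lovastatin replicate 3, SGA360 replicate 2 or SGA315 replicate 1 (adjusted p = 0.0369, 0.0477 and 0.0418), and with SGA315 without SGA315 replicate 3 (0.0254), where 2 cofactors were then lower. SMAD4, the shared partner of BMP and TGF-beta signals, rose by 0.19 and 0.36, and the coactivator NCOA1 by 0.33 and 0.28.

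The list of genes known to be regulated by HNF4 had 12 tested members of 17. With SGA360, 10 were lower and 1 higher (31.4% of all genes in each direction), at a median of −0.59 (0.02 for all genes). DESeq2 called 8 lower and 0 higher with SGA360. SERPINA1 changed by −0.07 (adjusted p = 0.0497), a call that ended with DESeq2 (0.0601) or without SGA360 replicate 2 (0.192). With SGA315, 6 were lower and 4 higher (33.2% and 36.0% of all genes), at a median of −0.33 (0.04 for all genes). Between the ligands 6 were lower and 1 higher with SGA360 (20.9% and 21.8% of all genes), at a median of −0.20 (−0.01 for all genes), and DESeq2 called 4 lower. With SGA360 and SGA315, APOB fell by 0.65 and 0.59, APOA1 by 0.54 and 0.64, and AGT, the angiotensinogen gene, by 0.66 and 0.61. APOA1 was the member higher with SGA360 than with SGA315 (0.10 ± 0.027, adjusted p = 0.00259), a call that ended without SGA315 replicate 3 (adjusted p = 0.0522). APOA1 stood at 1025 ± 5.82 CPM with lovastatin alone, and at 702 ± 10.0 and 656 ± 29.4 CPM with SGA360 and SGA315. FABP1, the liver-type fatty acid binding protein gene, was the member that differed most between the ligands. It stood at 28.8, 30.1 and 30.7 CPM with lovastatin alone, at 22.2, 22.7 and 26.7 CPM with SGA360 and at 54.7, 55.5 and 60.7 CPM with SGA315. FABP1 fell by 0.34 ± 0.066 with SGA360 (adjusted p = 9.17e-06) and rose by 0.93 ± 0.056 with SGA315 (adjusted p = 1.27e-23). APOA4 fell by 0.86 with SGA360 and rose by 0.31 with SGA315 (adjusted p = 0.0325, 0.00301 to 0.21 over the alternatives), the latter not called with DESeq2, without the filter, or without any 1 lovastatin library, SGA315 replicate 1 or SGA315 replicate 3. APOC3, the member higher with SGA360 (0.17, adjusted p = 0.041), was not called under 10 of 16 alternatives (0.000741 to 0.242), among them DESeq2 and leaving out any lovastatin library, SGA360 replicate 2 or 3, or SGA315 replicate 1. FABP2, G6PC1, APOC2, PCK1 and NR1I2 had at most 16 counts in all libraries and were not tested. MTTP, which loads lipid on APOB, had 33, 14 and 27 counts in the 3 groups and fell by 1.31 with SGA360 (adjusted p = 0.00633), a call that ended with DESeq2 (adjusted p = 0.0518).

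Genes known to be regulated by CDX factors did not move as 1 block. Of 12 tested of 17, 1 was higher and 7 lower with SGA360 (median −0.29), against 31.4% of all genes in each direction (median 0.02). With SGA315, 6 were higher and 4 lower (median 0.24), against 36.0% and 33.2% of all genes (median 0.04), so the lower count is at the background. DESeq2 called 4 higher and 4 lower with SGA315, so the larger count of higher members was not kept there. Between the ligands 1 was higher and 7 lower with SGA360 (median −0.66), against 21.8% and 20.9% of all genes (median −0.01). CDH17, the intestinal cadherin gene, fell by 0.61 ± 0.029 and 0.51 ± 0.029, from 289 ± 2.39 CPM. CDX2 RNA did not fall with either ligand, and its part in the change of CDH17 was not tested. SLC15A1, the intestinal peptide transporter gene, rose by 1.02 and 0.90, and CLDN2, a pore-forming claudin gene, fell by 1.24 and 1.26. HEPH, a ferroxidase gene of iron export, fell by 0.29 ± 0.070 with SGA360 and rose by 0.37 ± 0.065 with SGA315. MEP1A, a brush border protease gene, fell by 1.43 with SGA360, from 4.19 ± 0.237 to 1.58 ± 0.356 CPM, and stood at 4.54 ± 0.523 CPM with SGA315 (adjusted p = 0.506). The intestinal genes SI, sucrase-isomaltase, and GUCY2C, guanylate cyclase C, rose by 1.41 and 1.26 with SGA315 from under 1 CPM. LCT, lactase, fell with both ligands, by 2.38 and 1.05, at only 70, 14 and 33 counts in the 3 groups. Without lovastatin replicate 3, SI was also called with SGA360 (1.11, adjusted p = 0.0313), which made 2 higher members; VIL1, the member higher with SGA360 than with SGA315 (0.07, adjusted p = 0.04), was not called without SGA360 replicate 1, SGA315 replicate 1 or SGA315 replicate 3 (adjusted p = 0.285, 0.176 and 0.0746; 0.0136 to 0.285 over the alternatives), which left 0.

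Most tested crypt and Wnt-responsive genes fell with both ligands. Of 10 tested of 11, 7 were lower and 1 higher with SGA360 (median −0.65), against 31.4% of all genes in each direction (median 0.02). With SGA315, 8 were lower and 0 higher (median −0.63), against 33.2% and 36.0% of all genes (median 0.04; DESeq2 also called 0 higher, and 0 were higher at an unadjusted p under 0.05). LGR5, the stem cell receptor, went from 54.3 ± 0.626 CPM to 17.2 ± 1.44 and 19.5 ± 1.11. MYC fell by 0.87 ± 0.032 and 0.72 ± 0.032, and AXIN2, a feedback inhibitor of Wnt signalling, by 0.66 and 0.92. Between the ligands 5 were higher and 2 lower with SGA360 (21.8% and 20.9% of all genes), and DESeq2 called 3 and 1. Without SGA360 replicate 1 the higher were 3, and without SGA360 replicate 2, SGA315 replicate 1 or SGA315 replicate 2 the lower was 1. PROM1, a membrane glycoprotein gene, was the member higher with SGA360 (0.11 ± 0.027), and it fell by 0.20 with SGA315.

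**Figure D4:**
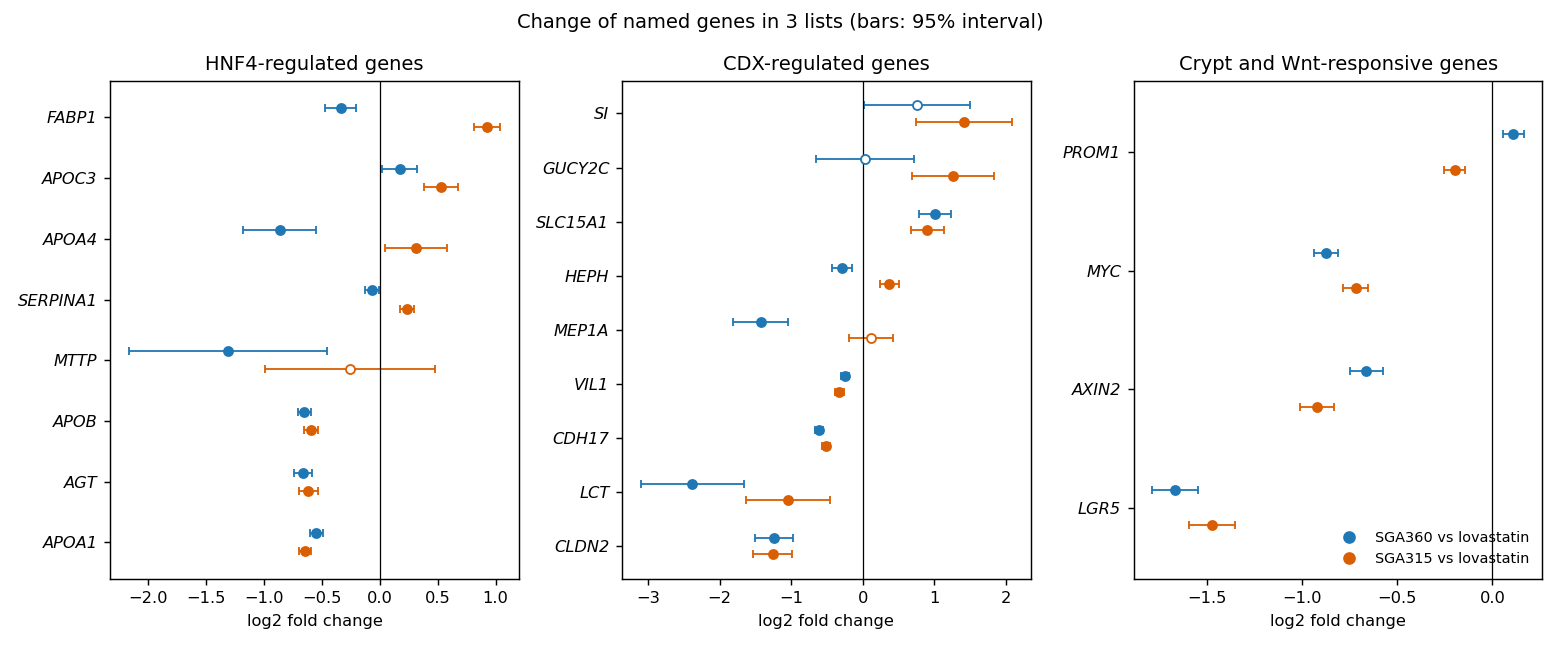
Log2 fold change (horizontal axes) of the members of 3 lists that are named in the text, with SGA360 and with SGA315 against lovastatin alone, ordered by the SGA315 value, with 95% intervals; filled symbols passed an adjusted p under 0.05. FABP1, APOA4 and HEPH lie on opposite sides of 0, whereas LGR5, MYC and AXIN2 lie to the left with both ligands.

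Markers of other cell types moved as well. The gastric list of 9 markers rested on SOX2, a foregut factor, which stood at 49.0 ± 2.87 CPM with lovastatin alone and fell by 0.24 with SGA360 and by 0.68 with SGA315; GKN1 and GKN2 had 0 counts, and the summed level was 48.3 to 54.3, 40.0 to 46.9 and 30.7 to 32.6 CPM. PDX1, a factor of pancreas and duodenum, rose by 0.57 and 0.29 from 6.54 ± 0.871 CPM, while PTF1A, the acinar factor, had 0 counts. The squamous list held 4.54 to 5.18, 12.4 to 13.7 and 2.76 to 3.996 CPM, nearly all of it KRT4. Fibroblast and muscle markers summed to 51.5 to 55.2, 36.7 to 39.7 and 26.9 to 29.3 CPM, mostly COL1A1, with COL1A2, DCN and ACTA2 at 1 count each. Immune and endothelial markers summed to 10.2 to 11.7, 9.40 to 13.1 and 7.49 to 9.14 CPM. In bulk RNA, a change in the share of cells and a change in RNA per cell cannot be told apart. The part of any of these in the changes of the factors was not tested.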

How the data were processed

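The authors deposited a table of raw read counts per RefSeq transcript entry and library, per the file headers, with 1 column for each of 9 Caco-2 libraries. Per the submitters' processing notes, TopHat2 2.0.13, HTSeq 0.5.4p3 and hg19 were used, with no role stated; annotation release and strand setting: not given in the sources used here. Of 65325 entries, 64346 were named from the RefSeq gene table of GRCh38.p14 and 565 from GENCODE 29; 414 stayed unnamed (0.224% of counts) and were left out. The entry with the highest total stood for each gene, since entries of a gene repeat reads of shared exons, and 52 genes identical in counts to another were dropped. Levels per length were not compared between genes, because entry lengths in the authors' annotation are not known.

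The test was the quasi-likelihood test of edgeR 4.0.16 (R 4.3.3, TMM, filterByExpr with minimum count 10 and total 15, 1 fit over 9 libraries, no covariate). SE is the absolute log2 fold change divided by the square root of F. The script was tested on simulated data. The genes and lists were chosen with earlier results of these data known. Genes named are the 8 factors, for each list and comparison up to 3 with the smallest p and 3 with the largest called change, list members at 0, antisense genes, and the 3 nearest genes of factors changed by at least 0.5. GATA4, GATA5, EP300 and members named for low counts, marker genes included, were singled out after their values were seen; some genes that the rule names are not reported here. Alternatives were RLE scaling, totals only, DESeq2 1.42.0, no filter, the 2 compared groups alone, a replicate block, the lowest accession of each gene and leaving out each library.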

Additional observations from a re-analysis of the deposited data

How the results depend on the processing

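Each of the 18 changes of the 6 tested factors was recomputed under 16 alternatives (288 values), of which 274 kept their direction and their side of the threshold, 10 lost the call, 3 gained it and 1 turned. Scaling by totals alone gave CDX2 0.19 with SGA360, HNF4A 0.063, ELF3 0.20 and SOX9 −0.0016 with SGA315, ELF3 0.10 between the ligands, and turned SERPINA1 with SGA360 (0.049) and EP300 with SGA315 (0.082). It left 2 factors higher with SGA360, 3 higher and 2 lower with SGA315 and 0 higher between the ligands. It also left 2 other regulators lower, 2 CDX-regulated and 2 crypt genes higher with SGA360, and 0 CDX-regulated genes higher between the ligands. The fit of 2 groups alone gave CDX2 0.083 with SGA360 (2 factors higher) and ELF3 0.11 between the ligands (0 factors and 0 CDX-regulated genes higher). DESeq2 gave ELF3 0.12 between the ligands (0 factors higher), where 5 other regulators, 1 cofactor and 1 crypt gene were lower and 3 crypt genes higher, and over all genes called 1948 lower against 3064. HNF4-regulated genes higher with SGA360 were 0 with RLE scaling, DESeq2, no filter and the lowest accession, and cofactors lower were 1 with the lowest accession.

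Leaving out 1 library at a time, HNF4A with SGA315 ranged from −0.092 to −0.049 and ELF3 between the ligands from 0.080 to 0.14. Factors higher ranged from 1 to 2 with SGA315 and from 0 to 1 between the ligands. The second factor was HNF4G, called only without SGA315 replicate 1, its lowest SGA315 library. With SGA360, cofactors lower ranged from 0 to 1, HNF4-regulated genes higher from 0 to 1 and CDX-regulated genes higher from 1 to 2. Cofactors lower with SGA315 ranged from 1 to 2. Between the ligands, CDX-regulated genes higher ranged from 0 to 1, crypt genes higher from 3 to 5 and crypt genes lower from 1 to 2. Same-numbered libraries correlated at −0.02 to 0.05 in their deviations from the group means (9 pairs) and others at −0.06 to 0.03 (18 pairs). No pairing by replicate number was seen, but with 3 libraries per group this check cannot exclude it. With the replicate number as a block, 1 factor was higher and 4 lower in each comparison, with HNF4A at −0.77, −0.06 and −0.71. Depth limits what can be said of HNF4G, at 75 counts in all.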
